A study of Homo sapiens with 6 samples.

Results

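A panel of 40 interferon-stimulated genes was followed in 6 RNA-seq libraries of KGN, an established cell line from a human ovarian granulosa cell tumour. The panel is a list of gene symbols, and each of the 40 matched 1 gene ID among the 58336 in the tables. FOXL2 is a forkhead transcription factor of granulosa cells, and KGN carries 1 copy with the C134W protein change. The FOXL2 WT/C134W group keeps that change and consists of libraries 3.11 (replicate 1), 44b (replicate 2) and 3.11-44b (replicate 3). In the FOXL2 WT/WT group it was reverted with CRISPR/Cas9, and its libraries are 44a (replicate 1), 4.72 (replicate 2) and 4.72-44a (replicate 3). RNA was extracted 30 h after transfection in every library; what was transfected is not stated, and no library without transfection was analysed here. Only the WT/WT labels record editing, so genotype and editing cannot be told apart. The third title of each genotype joins the other 2 names and may be a mix. Tests therefore used the 4 libraries named for a single clone, 2 per genotype. Their p-values set the difference between genotypes against the spread between clones of a genotype, estimated with information shared across genes. That spread may be clonal, technical or both.

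Interferons are secreted proteins that cells release when sensors find viral RNA or misplaced DNA. Type I interferon binds a receptor whose kinases phosphorylate STAT2, which acts with IRF9 in a complex that binds the interferon-stimulated response element in promoters. The induced proteins block viral entry, translation and replication, or adjust the signal itself. Many of these genes also keep a lower level of expression without added interferon, which is the state in which most cultured cells are measured.

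Promoter sequence was examined first, for the response element named above. RefSeq start-site windows (GRCh38.p14, 250 bases before to 50 after a start) were found for 32 of the 40 genes. IRF7, DHX58, USP18, IFIT2, IFITM2, OAS2, OASL and MX2 had no entry. The element's core, 2 copies of GAAA with 2 bases of any kind between them, read on both strands with overlaps allowed, was present for 22 of the 32 genes (68.8%), against 4.38% of the 27305 genes with a window. The interferon gamma activated site TTCNNNGAA, searched in the same way, was present for 9 of 32 (28.1%), against 9.38% of all genes. The windows printed here belong to 4 genes with higher levels in the WT/C134W clones, to IFITM3 from the opposite side and to RSAD2, which had no reads. Capitals mark each match to the element's core on either strand, and sequences run 5′ to 3′ on the gene's strand.
IFI44 (chr1:78649539-78649838, plus strand): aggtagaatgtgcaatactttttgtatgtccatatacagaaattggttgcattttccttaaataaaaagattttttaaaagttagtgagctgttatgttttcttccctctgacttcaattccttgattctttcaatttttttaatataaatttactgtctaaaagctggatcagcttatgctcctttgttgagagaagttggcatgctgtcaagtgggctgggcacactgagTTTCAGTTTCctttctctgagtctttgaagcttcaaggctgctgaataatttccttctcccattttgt
IFIT1 (chr10:89392373-89392672, plus strand): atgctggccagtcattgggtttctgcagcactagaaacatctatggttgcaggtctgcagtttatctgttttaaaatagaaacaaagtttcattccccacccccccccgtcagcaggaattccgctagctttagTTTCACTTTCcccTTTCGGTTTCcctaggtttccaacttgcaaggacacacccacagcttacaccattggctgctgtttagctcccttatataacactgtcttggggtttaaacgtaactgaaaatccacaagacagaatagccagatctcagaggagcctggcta
HERC5 (chr4:88456869-88457168, plus strand): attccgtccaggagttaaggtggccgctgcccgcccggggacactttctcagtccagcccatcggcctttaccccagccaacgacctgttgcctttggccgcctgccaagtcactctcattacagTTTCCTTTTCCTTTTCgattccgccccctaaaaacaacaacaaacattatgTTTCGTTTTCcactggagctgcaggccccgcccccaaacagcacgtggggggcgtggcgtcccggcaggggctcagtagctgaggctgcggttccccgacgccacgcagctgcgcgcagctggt
SAMD9 (chr7:93117930-93118229, minus strand): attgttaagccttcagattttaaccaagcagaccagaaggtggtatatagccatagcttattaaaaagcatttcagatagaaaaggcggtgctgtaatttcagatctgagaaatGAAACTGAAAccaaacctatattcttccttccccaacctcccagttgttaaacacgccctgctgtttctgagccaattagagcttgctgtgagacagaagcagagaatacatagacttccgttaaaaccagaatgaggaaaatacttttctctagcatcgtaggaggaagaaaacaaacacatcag
IFITM3 (chr11:320811-321110, minus strand): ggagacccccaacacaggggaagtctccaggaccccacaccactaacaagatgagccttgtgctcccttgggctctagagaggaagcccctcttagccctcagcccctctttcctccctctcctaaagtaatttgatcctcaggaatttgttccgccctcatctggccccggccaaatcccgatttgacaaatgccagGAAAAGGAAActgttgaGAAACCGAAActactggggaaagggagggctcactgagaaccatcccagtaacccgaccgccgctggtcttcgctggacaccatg
RSAD2 (chr2:6877527-6877826, plus strand): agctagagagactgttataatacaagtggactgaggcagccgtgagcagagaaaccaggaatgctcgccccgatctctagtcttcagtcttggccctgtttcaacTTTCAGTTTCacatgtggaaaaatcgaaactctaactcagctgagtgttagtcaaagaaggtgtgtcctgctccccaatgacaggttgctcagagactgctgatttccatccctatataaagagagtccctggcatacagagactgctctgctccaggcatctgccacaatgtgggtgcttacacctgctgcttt
The IFIT1 window holds 2 matches, the first bases lying at -116 and -103 from the start. HERC5 has 3, the first at -125 and the last at -74. IFI44 and SAMD9 have 1 each, at -18 and -136, and IFITM3 has 2 at -52 and -35. RSAD2 has 1 at -145. IFI44 and RSAD2 have 2 listed starts each, and the window with more matches is shown. A match in these letters describes the sequence and not binding, and genes with a match stood on both sides of the comparison as well as among those without reads.

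Most of the panel was transcribed in these cells, at levels that differed widely (TPM, a level per gene length scaled to a common sum). At least 1 TPM was present in all 6 libraries for 31 of the 40 genes, at least 10 TPM for 14 and at least 100 TPM for 3. The 3 were IFITM3, IFITM2 and IFI27. Below 1 TPM in every library were OASL, MX2, RSAD2 and CMPK2, and the last 2 had 0 counts throughout. Totals ran from 35332727 to 42137567 counts in WT/C134W, against 41923218 to 46613068 in WT/WT, so that 3 counts equal 0.0662 to 0.0783 CPM (TMM-scaled counts, brought to 1 common total), the limit that a count of 0 allows for counting error only. RSAD2 encodes viperin and CMPK2 a mitochondrial nucleotide kinase, and they lie head to head on chromosome 2.

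**Figure D1:**
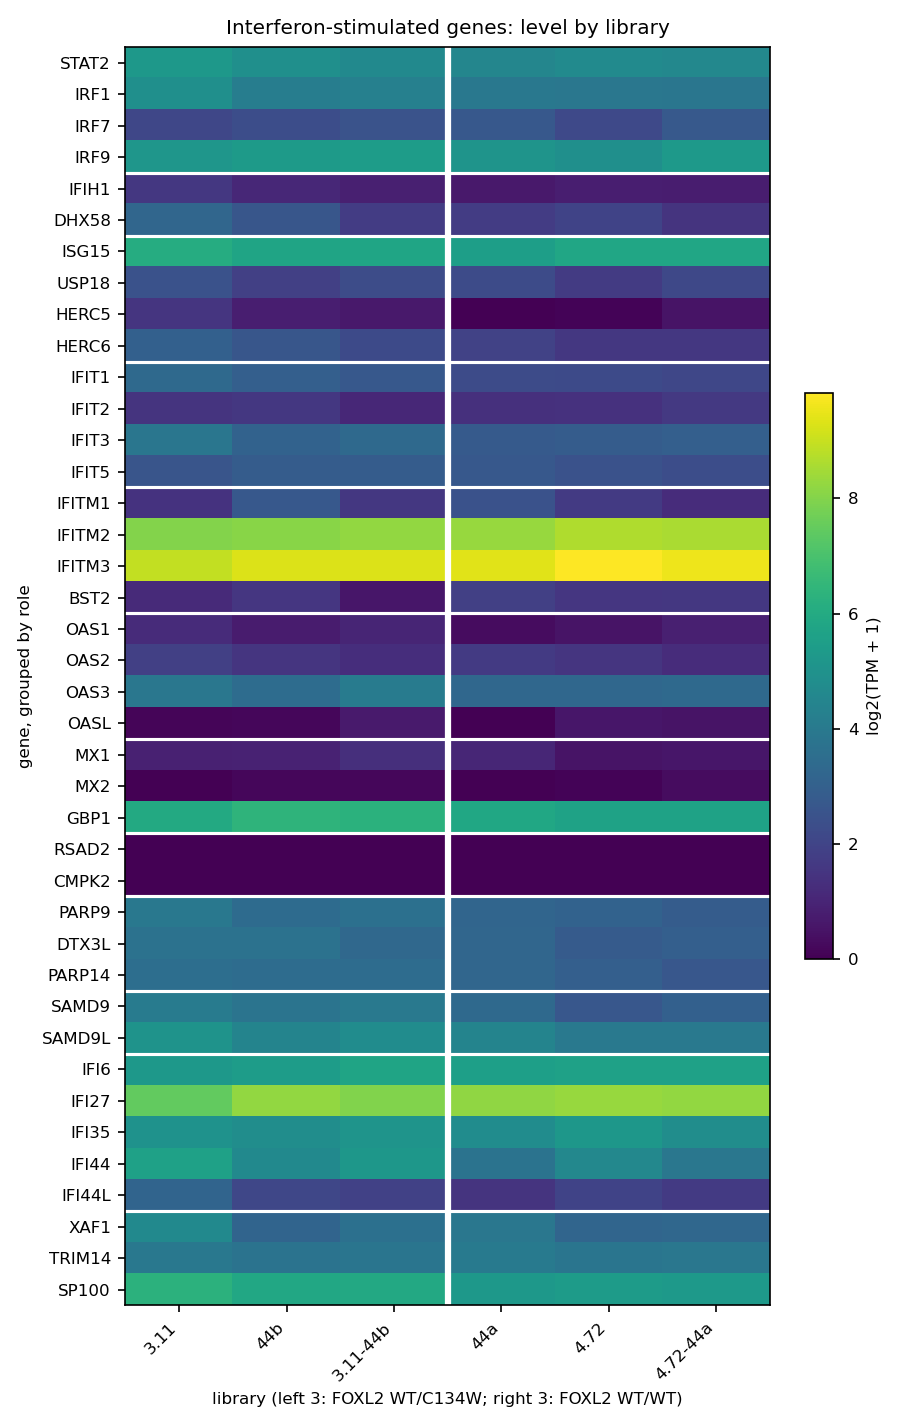
Heat map of log2(TPM + 1) for the 40 genes (rows, separated by role) in the 6 libraries (columns, WT/C134W left and WT/WT right). IFITM2, IFITM3 and IFI27 are bright in every column, while RSAD2 and CMPK2 are at 0 in all 6.

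FOXL2 itself had 3.47 to 5.48 TPM in WT/C134W, against 2.17 to 3.70 TPM in WT/WT, and these totals per gene do not tell the alleles apart. Of 12 granulosa markers 6 reached 1 TPM in some library, among them NR5A1 at 19.4 to 21.7 TPM in WT/C134W, against 22.8 to 26.7 TPM in WT/WT, and FSHR, AMHR2, GATA4 and WT1 were at 0 in all 6 libraries. Of 12 leukocyte markers 8 were at 0 in all 6 libraries, LILRA4 and CD3E among them. The summed leukocyte level was 93.9 to 106 TPM in WT/C134W against 93.5 to 102 TPM in WT/WT and came almost wholly from CD68, a lysosomal protein. The summed level of 4 fibroblast markers, nearly all COL1A1, was 3862 to 4523 TPM in WT/C134W, against 6877 to 8746 TPM in WT/WT, and its part in the results was not tested.

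Between genotypes no gene of the panel passed the test. By unadjusted p, IFI44, IFI44L, IFIT1, SAMD9, SP100 and HERC5 stood out with more counts in the WT/C134W clones, and the membrane proteins IFITM2 and IFITM3 with fewer. Of 36 genes with enough counts to test, 26 had a positive log2 fold change (always mutant over reverted) and 10 a negative one, and 50.6% of all 16416 genes tested were positive. The median was 0.27, with 0.01 over all genes, and the values ran from -1.02 for BST2 to 4.38 for HERC5. OASL, MX2, RSAD2 and CMPK2 fell below the count filter, so the 36 are not the whole panel.

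In edgeR's quasi-likelihood test with Benjamini-Hochberg adjustment over all genes, 0 of 36 members had an adjusted p under 0.05 (background 0.0%, 0 of 16416 genes), and the smallest of the panel was an adjusted p of 0.593 at IFI44. An unadjusted p under 0.05 was found for 6 members with more counts in WT/C134W (background 2.88%) and 2 with fewer (background 4.7%), together 22.2% of members against 7.57% of all genes. limma voom called 0 members and 0 genes, DESeq2 called 0 members and 264 genes (background 1.65%), and a block pairing 44a with 44b called 0 members and 5 genes (background 0.0305%). Without the low-count filter edgeR called HERC5, IFI44 and SAMD9 (background 2.73%). The 4 clones did not overlap in CPM, with WT/C134W above, for 16 members (44.4%, background 19.9%) and, with WT/C134W below, for 8 (22.2%, background 19.7%). These comparisons share the same 4 libraries and add no separate support to one another.

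**Figure D2:**
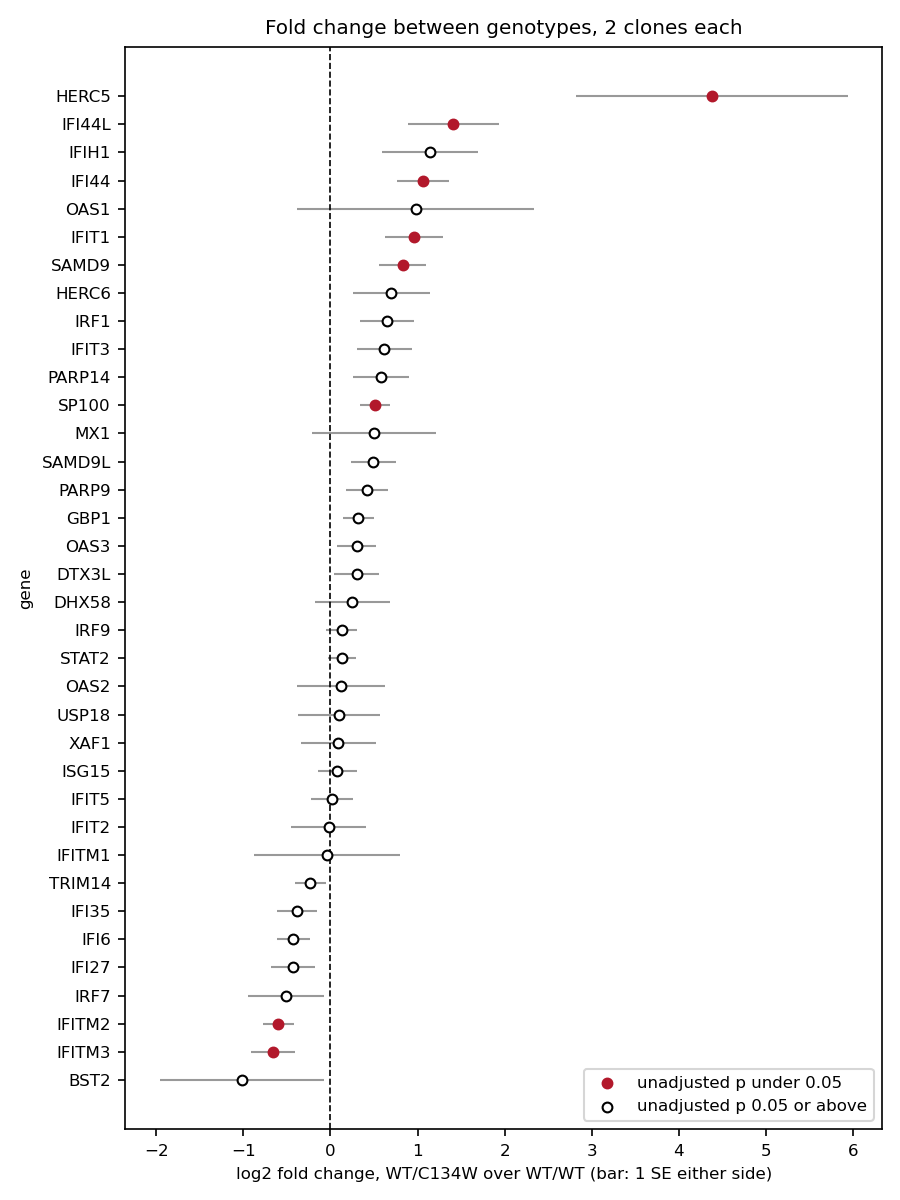
Log2 fold change of the 36 tested genes, mutant over reverted, 2 clones each, with bars of 1 SE derived from edgeR's F value. Filled points mark the 8 genes with an unadjusted p under 0.05, and HERC5 at 4.38 has the widest bar. After adjustment 0 genes passed.

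IFI44 and IFI44L are neighbouring genes on chromosome 1 (78649796 to 78664078 and 78619922 to 78646145, GRCh38, plus strand) whose products bind the chaperone FKBP5. IFI44 had 28.0 CPM in 3.11 and 17.7 CPM in 44b, against 9.64 CPM in 44a and 12.3 CPM in 4.72. The joined libraries had 19.8 CPM (WT/C134W) and 11.1 CPM (WT/WT), so all 3 mutant libraries lay above all 3 reverted ones. IFI44 had a small margin in TPM, with 24.1 in 44b against 23.2 in 4.72, and a length estimate up to 1.53-fold apart between libraries. Its log2 fold change was 1.06 ± 0.30 (SE, 2 clones per genotype, adjusted p = 0.593 in edgeR's test). IFI44L had 15.9 CPM in 3.11 and 5.85 CPM in 44b, against 4.22 CPM in 44a and 3.92 CPM in 4.72, with 6.76 and 3.85 CPM in the joined libraries. Here 3.11 stood apart from every other library, and the log2 fold change of 1.41 ± 0.52 was 0.52 without 3.11. In TPM the joined WT/C134W library, at 2.71, lay below 4.72, at 2.90, and the length estimate of IFI44L differed up to 2.06-fold between libraries.

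**Figure D3:**
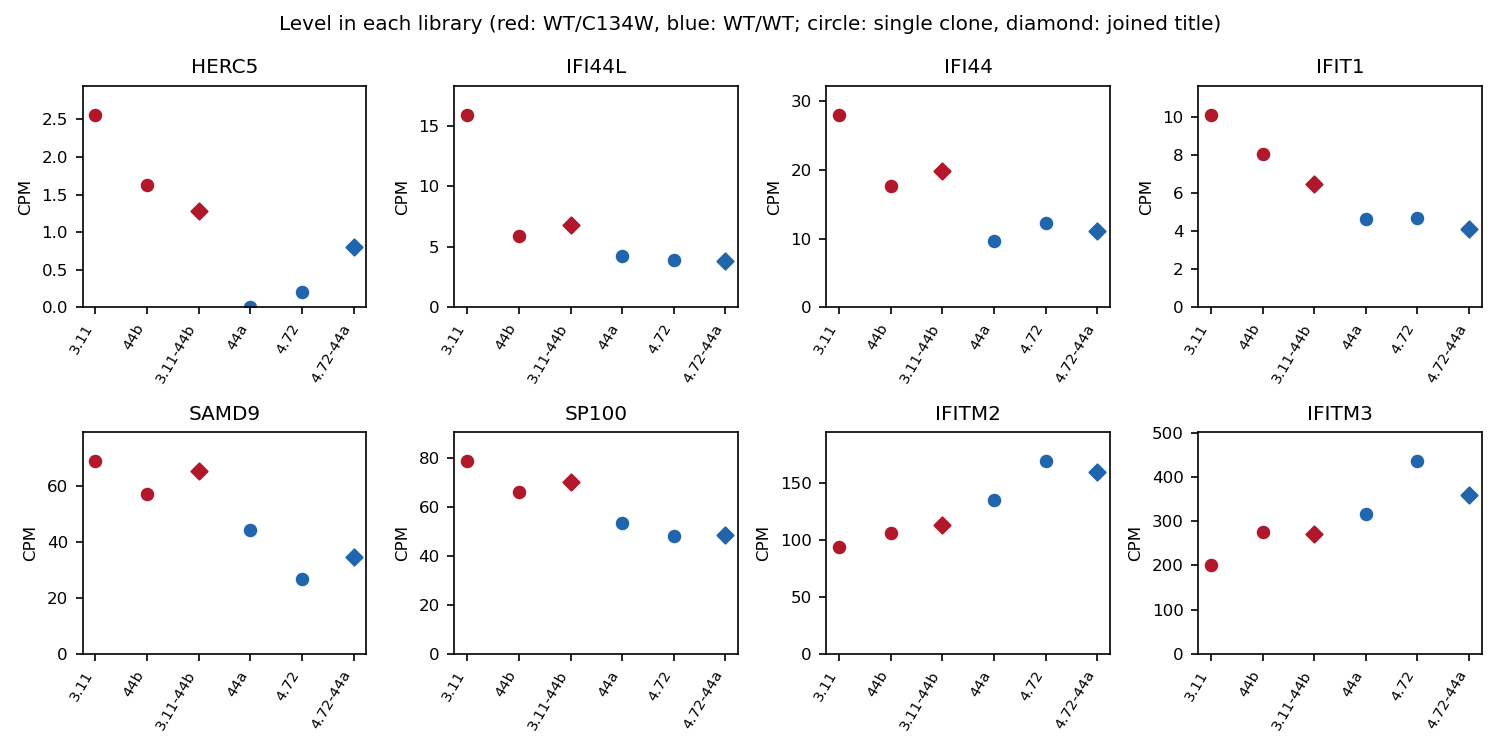
CPM of the 8 genes with an unadjusted p under 0.05 in each library, on linear axes from 0. Red marks WT/C134W and blue WT/WT, circles are single clones and diamonds the libraries with joined titles. For these 8 genes no red point lies among the blue ones.

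IFI27 and IFI6 are small hydrophobic proteins of 1 family, and IFI35 is a leucine zipper protein that pairs with NMI. IFI27, the most abundant of them, had 174 TPM in 3.11 and 303 TPM in 44b, against 297 TPM in 44a and 321 TPM in 4.72, with 251 and 298 TPM in the joined libraries of WT/C134W and WT/WT. The 3.11 clone was the low one, and 44b lay within the reverted range in TPM. In CPM the log2 fold changes were -0.43 ± 0.25 for IFI27, -0.43 ± 0.19 for IFI6 and -0.39 ± 0.23 for IFI35, and the 4 clones did not overlap in any of the 3. With the joined libraries included IFI6 and IFI35 overlapped.

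Among the IFIT proteins, which bind foreign 5′ ends of RNA and block its translation, IFIT1 and IFIT3 had more counts in the mutant clones. IFIT1 (chromosome 10, 89392546 to 89406486) had 10.1 CPM in 3.11 and 8.05 CPM in 44b, against 4.63 CPM in 44a and 4.71 CPM in 4.72. The joined libraries held 6.48 and 4.13 CPM, in the same order. The log2 fold change was 0.96 ± 0.33 (SE, adjusted p = 0.647 in edgeR's test), and it ranged from 0.79 to 1.10 with any 1 clone left out. IFIT3, the most abundant member of the family, had 13.5 TPM in 3.11 and 7.51 TPM in 44b, against 5.82 TPM in 44a and 6.35 TPM in 4.72, with 9.30 and 6.93 TPM in the joined libraries. Its log2 fold change of 0.62 ± 0.32 was 0.18 without 3.11. IFIT2 and IFIT5 stood at -0.02 and 0.02, with overlapping clones in CPM. In TPM IFIT2 had 1.76 in 3.11 and 1.98 in 44b, against 1.60 in 44a and 1.63 in 4.72. Its joined libraries went the other way, with a log2 ratio of -1.11 in CPM, WT/C134W over WT/WT.

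The 2 SAMD9 genes lie side by side on chromosome 7 and encode cytosolic restriction factors of poxviruses. SAMD9 (93099513 to 93118023, minus strand) had 69.0 CPM in 3.11 and 57.3 CPM in 44b, against 44.5 CPM in 44a and 26.7 CPM in 4.72, and the joined libraries had 65.4 and 34.7 CPM. The groups did not overlap, and 4.72 was the lowest of all, farther below 44a than 44a was below 44b. The log2 fold change was 0.83 ± 0.27, or 0.50 without 4.72 and 1.22 without 44a. SAMD9L had 32.4 TPM in 3.11 and 20.7 TPM in 44b, against 20.6 TPM in 44a and 14.5 TPM in 4.72, with 26.7 and 14.9 TPM in the joined libraries. Its level in 44b was near that of 44a, and its log2 fold change of 0.49 ± 0.26 was 0.09 without 3.11.

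SP100, a scaffold of PML nuclear bodies that restricts DNA viruses, had the smallest SE of the 6 genes with a positive difference and an unadjusted p under 0.05. It had 78.7 CPM in 3.11 and 66.2 CPM in 44b, against 53.3 CPM in 44a and 48.2 CPM in 4.72, with 70.1 and 48.4 CPM in the joined libraries. The log2 fold change was 0.51 ± 0.17 (SE, adjusted p = 0.641 in edgeR's test) and stayed between 0.39 and 0.62 with any 1 clone left out. XAF1, a binder of the apoptosis inhibitor XIAP, was unlike it, with 22.5 CPM in 3.11 and 10.1 CPM in 44b, against 18.4 CPM in 44a and 12.2 CPM in 4.72. Its clones overlapped. PRAL, an antisense transcript that overlaps 38.3% of the exonic bases of XAF1, had 212 counts in 3.11 and 0 in 44b, against 115 in 44a and 0 in 4.72, and its part in the XAF1 values was not tested. TRIM14, an adaptor at the antiviral signalling protein MAVS, had a log2 fold change of -0.23 ± 0.18.

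ISG15 is a ubiquitin-like protein that HERC5 joins to new proteins and USP18 removes. ISG15 had 67.2 TPM in 3.11 and 52.7 TPM in 44b, against 44.15 TPM in 44a and 56.05 TPM in 4.72, with 53.3 and 55.3 TPM in the joined libraries. The clones overlapped, and the log2 fold change in CPM was 0.08 ± 0.22. HERC5 (chromosome 4, 88457117 to 88506163) had 106 counts in 3.11 and 74 in 44b, against 0 in 44a and 8 in 4.72, and the joined libraries had 49 and 31 counts. The fitted log2 fold change of 4.38 ± 1.56 rests on the single-digit counts of WT/WT, is not a bound, and was 3.37 to 9.52 with a clone left out. The joined WT/WT library held more HERC5 than either clone in its title. HERC6, the neighbouring gene, had a log2 fold change of 0.70 ± 0.44, and USP18 one of 0.10 ± 0.47. Of the 50-base windows of USP18 transcripts 23.4% also occur in another gene, mostly its near copy USP41. The deposited counts of USP18 were whole numbers in every library and showed no fractional split of reads.

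IFITM proteins and BST2 (tetherin) act at membranes, where they hinder virus entry or release. This was the role in which all 4 members had negative log2 fold changes, where 50.6% of all genes were positive. The sign of IFITM1, however, was not stable. It was 0.59 without 3.11 and 0.58 without 44a, but -0.47 without 4.72 and -1.17 without 44b. IFITM1 also turned to 0.17 when only library totals were used for scaling, a setting that moved the median of all genes to 0.23. With all 6 libraries it had 0.04. IFITM3 had 487 TPM in 3.11 and 642 TPM in 44b, against 673 TPM in 44a and 910 TPM in 4.72. In CPM it had 201 and 277, against 317 and 436, with 272 and 360 in the joined libraries, and the groups did not overlap on either scale. The log2 fold change was -0.66 ± 0.25 (SE, adjusted p = 0.657 in edgeR's test), and IFITM2 had -0.60 ± 0.18 (adjusted p = 0.622). Without 4.72, the highest clone, IFITM3 had -0.40 and IFITM2 -0.43. IFITM2 had 93.8 CPM in 3.11 and 106 CPM in 44b, against 135 CPM in 44a and 169 CPM in 4.72, with 113 and 160 CPM in the joined libraries. The genes are neighbours on chromosome 11 with near-identical stretches. Of the 50-base windows of their transcripts, 34.1% for IFITM2, 32.0% for IFITM1 and 17.4% for IFITM3 also occur in another gene, and reads could be split between them. The sum of the 3 genes, which a split within the family does not move, was 296 CPM in 3.11 and 386 CPM in 44b, against 454 CPM in 44a and 606 CPM in 4.72. IFITM1 and BST2 had at most 2.54 and 1.66 CPM in any library, with log2 fold changes of -0.04 ± 0.84 and -1.02 ± 0.94.

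Of the 4 factors that carry the signal, 3 had positive log2 fold changes, where 50.6% of all genes were positive. IRF9, which gives that complex its DNA contact, had 34.4 TPM in 3.11 and 39.7 TPM in 44b, against 32.9 TPM in 44a and 28.55 TPM in 4.72, with 42.3 and 39.0 TPM in the joined libraries. Its log2 fold change in CPM was 0.13 ± 0.18. STAT2 had 0.13 ± 0.16, and the clones of both genes lay in order by small margins. The protein-coding gene AL136295.5 overlaps 48.4% of the exonic bases of IRF9 on the same strand. IRF1, a transcription factor induced by type I and type II interferon, had 27.2 CPM in 3.11 and 15.1 CPM in 44b, against 13.4 CPM in 44a and 13.5 CPM in 4.72. Only 3.11 was distant from the rest, and the log2 fold change of 0.65 ± 0.31 was 0.17 without it. IRF7, which drives interferon alpha genes, had -0.51 ± 0.44.

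The RNA sensors were scarce. IFIH1 encodes MDA5, and it had 185 counts in 3.11 and 119 in 44b, against 64 in 44a and 72 in 4.72, while the joined libraries had 61 and 70. The single clones gave a log2 fold change of 1.14 ± 0.55, and the joined pair had a log2 ratio of -0.17, so the joined WT/C134W library sat with the reverted clones for this gene. DHX58 encodes LGP2 and had 8.58 TPM in 3.11 and 5.23 TPM in 44b, against 2.35 TPM in 44a and 2.97 TPM in 4.72, with 2.35 and 1.82 TPM in the joined libraries. In counts the same gene overlapped between genotypes, with a log2 fold change of 0.25 ± 0.43, and its effective length as RSEM estimates it differed up to 2.31-fold between libraries.

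The OAS enzymes make the second messenger that switches on RNase L, and OAS3 was their most abundant member. It had 13.9 TPM in 3.11 and 10.1 TPM in 44b, against 8.75 TPM in 44a and 8.74 TPM in 4.72, with 15.9 and 9.39 TPM in the joined libraries. Its log2 fold change in CPM was 0.30 ± 0.22, and the clones overlapped. OAS1 and OAS2 had 0.98 ± 1.36 and 0.12 ± 0.51. Of the GTPases, GBP1 had 61.0 TPM in 3.11 and 84.1 TPM in 44b, against 57.5 TPM in 44a and 49.3 TPM in 4.72, with 77.3 and 49.2 TPM in the joined libraries. Here 44b was the higher mutant clone, and the log2 fold change in CPM of 0.32 ± 0.18 was 0.12 without 44b and 0.49 without 3.11. MX1 and MX2, the dynamin-like GTPases often used to read interferon activity, were scarce, MX1 at 0.44 to 1.53 TPM and MX2 at 0 to 0.25 TPM.

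PARP9 and DTX3L form an ADP-ribosylating ubiquitin ligase, and PARP14 is a related enzyme encoded close by on chromosome 3. PARP9 had 14.35 TPM in 3.11 and 9.93 TPM in 44b, against 8.31 TPM in 44a and 7.58 TPM in 4.72, with 11.35 and 6.21 TPM in the joined libraries. The log2 fold changes were 0.42 ± 0.24 for PARP9, 0.30 ± 0.26 for DTX3L and 0.58 ± 0.32 for PARP14, and without 3.11 they were 0.18 for PARP9, 0.01 for DTX3L and 0.08 for PARP14. In CPM the clones did not overlap for PARP9 and overlapped for the other 2.

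Much of the panel was highest in a single clone. Clone 3.11 had the highest CPM of the 4 clones for 23 of 36 members (63.9%, background 30.5%), 44b for 5 (13.9%, background 21.6%), 44a for 3 (8.33%, background 24.3%) and 4.72 for 5 (13.9%, background 23.5%). The clones 3.11 and 44b were more than 1.5-fold apart for 14 members (background 26.9%), and 44a and 4.72 for 4 (background 23.3%). Taking each gene relative to its own mean over the 4 clones, the median member stood at 0.36 in 3.11 and -0.08 in 44b, against -0.07 in 44a and -0.24 in 4.72 on the log2 scale. The joined libraries stood at 0.09 (WT/C134W) and -0.19 (WT/WT), and the medians of all genes were within 0.01 of 0 in every library. Without 3.11 the median log2 fold change of the panel was 0.10 (-0.01 over all genes), and without 44b it was 0.49 (-0.03 over all genes). The same clone stood apart in KRT18, a keratin, with 379 TPM in 3.11 against 1027 to 1457 TPM in the other libraries, and its part in these values was not tested. Among other members, the log2 fold change without 3.11 was 0.69 for IFI44, 0.70 for IFIH1, 0.14 for HERC6, 0.05 for OAS3 and -0.15 for IFI27.

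**Figure D4:**
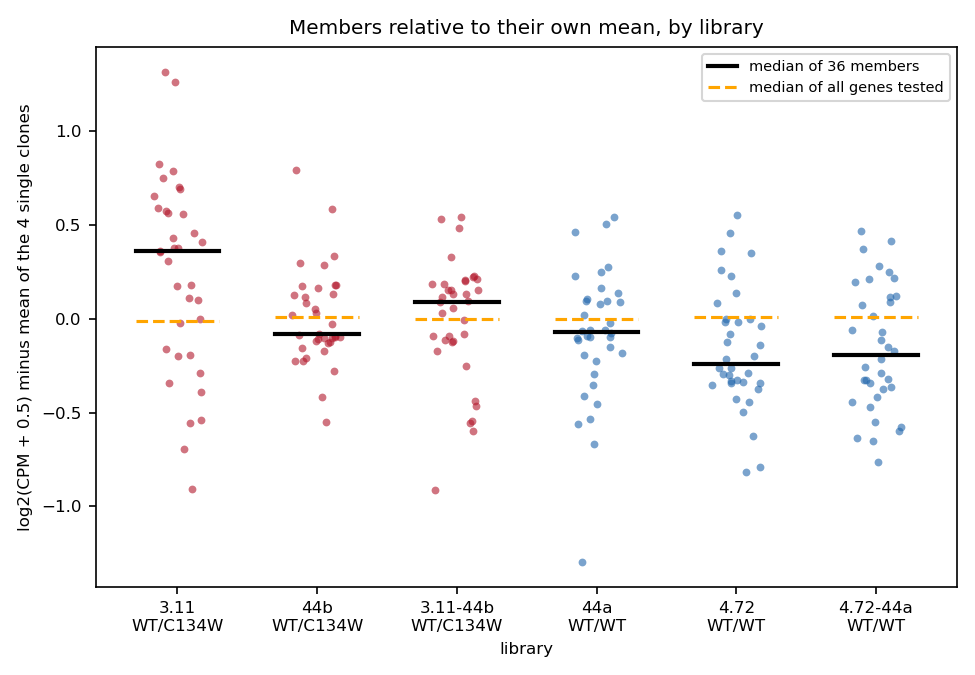
Each point is 1 of 36 genes, as log2(CPM + 0.5) minus its mean over the 4 single clones, by library (red WT/C134W, blue WT/WT). Black lines give the median of the 36 and dashed orange lines the median of all genes tested: 0.36 in 3.11 is the farthest from 0, and 44b and 44a lie close together at -0.08 and -0.07.

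**Figure D5:**
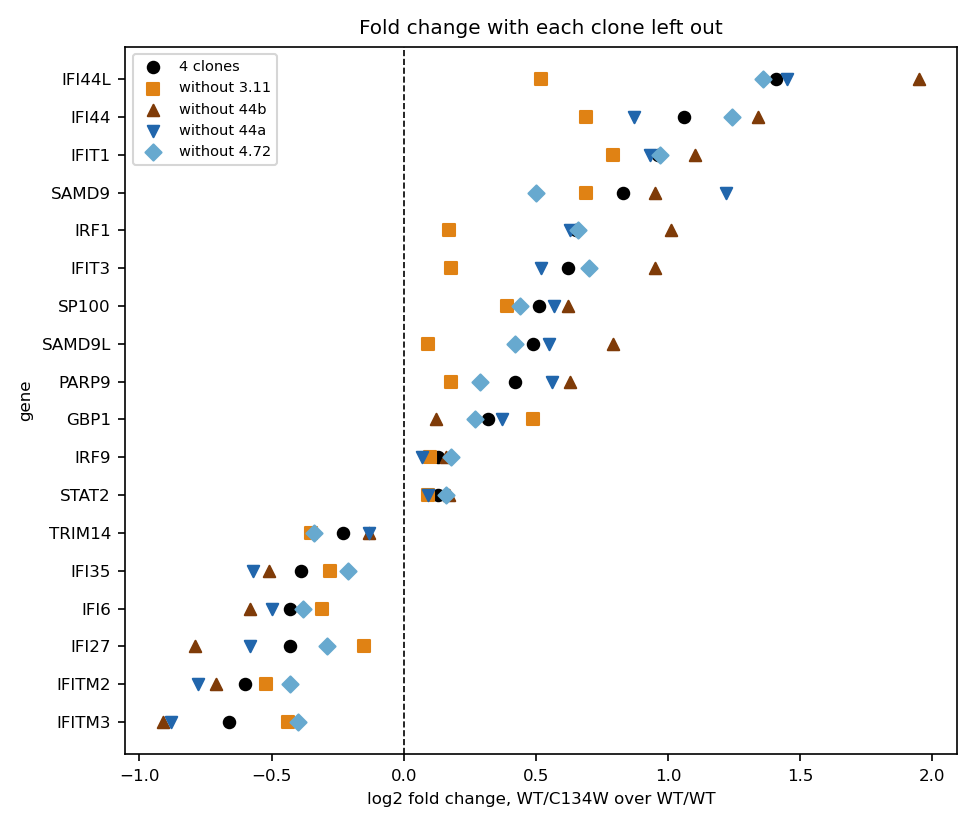
Log2 fold change, mutant over reverted, of the 18 genes whose single clones did not overlap and that averaged at least 5 CPM, from the 4 clones and with each clone left out. No sign changes, but these genes were picked for clones that did not overlap, so leaving a clone out could hardly reverse them. IFI44L, IRF1, IFIT3 and SAMD9L move towards 0 without 3.11.

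The joined libraries lay within the range of the clones they name for 20 of 36 members in WT/C134W (background 49.0%) and for 18 in WT/WT (background 49.3%). In WT/C134W 10 lay below both clones (background 26.7%) and 6 above (background 24.2%), and in WT/WT 13 below (background 25.6%) and 5 above (background 25.0%). With all 6 libraries in the fit, 511 of 16046 genes (background 3.18%) and 4 of 37 members passed, IFI44, SAMD9 and SP100 higher (background 0.823%) and IFITM2 lower in WT/C134W (background 2.36%). That fit counts the joined libraries as separate clones, which the titles leave uncertain. Across the 6 libraries the genotypes did not overlap for 12 members with WT/C134W above (background 12.0%) and 6 with WT/C134W below (background 13.9%).

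Negative values were more frequent among the shorter members, with exceptions. Of 11 members with a mean effective length under 1000 bases, 7 had negative values, namely IFITM1, IFITM2, IFITM3, BST2, IFI6, IFI27 and IFI35. The other 4 were positive, at 1.06 for IFI44, 0.98 for OAS1, 0.13 for IRF9 and 0.08 for ISG15. The median log2 fold change of the 11 was -0.39. In some libraries the lengths of IFI44, OAS1 and IRF9 were above 1000 bases. The IFITM genes can share reads, and IFITM1, BST2 and OAS1 were scarce. Of the 25 longer members 3 were negative, and the median was 0.42. Protein-coding genes on the 2 sides of 1000 bases, a length set after the values were seen, had medians of -0.03 and 0.0, and 45.1% of the shorter and 50.4% of the longer ones were positive. After subtraction of the median of protein-coding genes in the same length class, the panel's median was 0.26 in place of 0.27, IFITM3 stood at -0.63 and IFI44 at 1.09. The class medians were themselves small, so their subtraction could change little, and the part of length in the members' values was not tested. The TPM scale, which divides by an estimated length, placed 21 tested members with WT/C134W above without overlap (background 30.6%) and 3 below (background 11.3%), against 16 and 8 in CPM.

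Other parts of the pathway were read from further lists in the same test, in which no gene passed after adjustment. In other settings some of the genes named here did: TRIM22, TICAM1, IFI16, NFKB1 and LGALS3BP with all 6 libraries, TRIM22, TICAM1 and GBP2 without the low-count filter, and TRIM22 in DESeq2. Of 21 interferon genes 19 had 0 counts in every library and none reached the count filter. IFNB1 had 14 counts in 3.11-44b and 0 in the other libraries, and IFNE had 9 counts in 4.72-44a alone. Of 9 receptor subunits and kinases 8 were tested, 5 positive and 3 negative, with 0 at an unadjusted p under 0.05. IFNGR2, a chain of the interferon gamma receptor, had 40.4 CPM in 3.11 and 38.1 CPM in 44b, against 60.3 CPM in 44a and 44.0 CPM in 4.72, while its partner IFNGR1 had 20.7 and 18.3 CPM, against 16.0 and 13.7 CPM. IL10RB and JAK2 had log2 fold changes of -0.36 ± 0.27 and 0.35 ± 0.27.

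Among 13 tested sensors and adaptors 3 with positive and 2 with negative values had an unadjusted p under 0.05 (2.88% and 4.7% of all genes). TICAM1, the adaptor of TLR3, had 16.6 CPM in 3.11 and 20.2 CPM in 44b, against 31.7 CPM in 44a and 35.8 CPM in 4.72, a log2 fold change of -0.87 ± 0.20 (SE, adjusted p = 0.593 in edgeR's test). IFI16, a nuclear DNA sensor, had 122 and 104 CPM, against 87.7 and 76.9 CPM, and DDX58, which encodes RIG-I, had 22.5 and 17.5 CPM, against 11.9 and 14.4 CPM. TRAF3 had a log2 fold change of -0.46 ± 0.18. Of the 8 other transcription factors tested, 1 had an unadjusted p under 0.05 (7.57% of all genes), NFKB1 at -0.45 ± 0.15. IRF2 stood at 0.46 ± 0.26 and RELA at -0.34 ± 0.17. Of 15 negative regulators tested 0 had an unadjusted p under 0.05, against the same 7.57% of all genes. PTPN11 stood at 0.35 ± 0.15, PIAS1 at 0.33 ± 0.22, TNFAIP3 at -0.38 ± 0.29 and RNASEH2A at 0.29 ± 0.25.

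A list of 52 further interferon-stimulated genes had 45 tested, 34 of them positive (50.6% of all genes were), with a median log2 fold change of 0.20. In some positive genes only 3.11 lay above the reverted clones. EIF2AK2 had 116 CPM in 3.11 and 66.3 CPM in 44b, against 73.9 CPM in 44a and 63.9 CPM in 4.72. In others both mutant clones did, as in TRIM5 with 31.7 and 35.7 CPM, against 26.5 and 28.6 CPM. The list's median without 3.11 was not computed. Of the 45, 3 positive and 1 negative had an unadjusted p under 0.05, against 7.57% of all genes in either direction. TRIM22, a ubiquitin ligase with antiviral activity, had 59.2 CPM in 3.11 and 75.8 CPM in 44b, against 31.1 CPM in 44a and 31.2 CPM in 4.72, and 44b was the higher mutant clone. GBP2 and GBP4 had log2 fold changes of 0.90 ± 0.33 and 2.29 ± 0.88, both highest in 3.11, and without that clone 0.44 and 0.82. LGALS3BP, a secreted glycoprotein, had 438 and 517 CPM in the mutant clones, against 766 and 686 CPM in the reverted clones, a log2 fold change of -0.61 ± 0.18.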

How the data were processed

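RNA-seq gene tables of 6 KGN libraries, 3 per FOXL2 genotype by their labels, were used. Per the file headers, the authors deposited RSEM expected counts (unscaled estimates of reads per gene), TPM (per effective length, scaled to the same sum) and FPKM (per length and mapped fragments), and FPKM was not used here. Per the labels' protocols the mRNA kit was stranded. Tools in the submitters' processing notes are RSEM 1.3.1, STAR 2.7.6a, DESeq2 1.26.0, Picard 2.8.1 and R 3.6.3, beside the mouse build GRCm38, although the gene IDs are human. Human build, annotation and strand setting, not given in the sources used here, leave overlapping genes uncertain. Symbols and coordinates (GRCh38) came from GENCODE release 29, which holds 58216 of the 58336 IDs.

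Counts were rounded, filtered (filterByExpr), TMM-scaled and compared on the 4 single clones in edgeR 4.0.16 (R 4.3.3) by glmQLFTest after a robust glmQLFit, threshold 0.05. CPM values are TMM-scaled over 6 libraries, and SE is the log2 fold change over the square root of F. The script was run on simulated counts with planted differences larger than nearly all those of the panel, which says little about small differences between so few clones. Alternatives used DESeq2 1.42.0, limma 3.58.1, other scalings, filters and libraries, a block and log2(TPM + 1) or log2(TPM + 0.1). The panel, roles and lists were chosen with earlier results of these data known. Members with an unadjusted p under 0.05 and the most abundant of each role are given in every library, and up to 4 genes with the smallest p from each further list, apart from 1 gene that is not reported here.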

Additional observations from a re-analysis of the deposited data

How the results depend on the processing

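Of 36 members tested, 29 kept the sign of their log2 fold change under each of 15 alternatives in which they were tested. All 8 with an unadjusted p under 0.05 were among them. Those 8 were picked from the same clones, which did not overlap in CPM for any of them. Leaving 1 clone out could therefore hardly reverse them, and most other alternatives refit the same 4 clones, so the kept signs add no separate support. The number of genes called, 0 with the 4 clones, was 511 with all 6 libraries, 264 with DESeq2, 664 without the low-count filter, 1 with log2(TPM + 0.1) and 5 with a replicate block that paired 44a with 44b and 4.72 with 3.11. That block followed the likeness of the titles 44a and 44b and crosses the replicate numbers given in the opening. The titles give no replicate numbers and the labels no pairing, and with the block 0 members were called. Members called, 0 in the main test, were 4 with all 6 libraries and 3 without the filter (HERC5, IFI44 and SAMD9), and members with an unadjusted p under 0.05, 8, were 16 with all 6 libraries and 1 to 13 with a clone left out (1 without 3.11, 2 without 4.72, 4 without 44a, 13 without 44b). The panel's median of 0.27 was 0.50 with library totals alone, where the median of all genes moved to 0.23, 0.43 with log2(TPM + 0.1), where it was 0.16, and 0.10 to 0.49 with a clone left out (0.10 without 3.11, 0.40 without 44a, 0.49 without 44b). Subtraction of length-class medians, chosen after seeing the data, gave 0.26, and could change little because those medians were small. Signs reversed for ISG15 (-0.01) and IFITM1 (0.04) with all 6 libraries, XAF1 with voom (-0.02), and IFIT2 (0.21) and IFITM1 (0.17) with library totals. On the TPM scales IFIT2 had 0.13, 0.20 and 0.13 and PIAS1 -0.06 each time. With a clone left out, values ran from -0.11 to 0.28 for ISG15, -0.30 to 0.44 for USP18, -0.25 to 0.17 for IFIT2, -0.17 to 0.19 for IFIT5, -1.17 to 0.59 for IFITM1, -0.46 to 0.52 for OAS2, -0.59 to 0.55 for XAF1, and -0.05 to 0.57 for RNASEH2A. Without 3.11 ISG15 had -0.07, without 44a IFITM1 had 0.58, and without 4.72 USP18 had -0.19, IFIT2 0.07, IFIT5 -0.09, OAS2 -0.01 and XAF1 -0.17. The cause of these changes was not tested. Where an arm keeps 1 clone, that clone is assumed to vary like the other genotype. Depth limits OASL, MX2, OAS1, MX1, HERC5 and BST2, whose counts were low.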
